A study of Mus musculus with 6 samples.

Results

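miR-22 is a microRNA (miRNA) whose hairpin precursor gives rise to mature RNAs from both of its arms, mmu-miR-22-3p and mmu-miR-22-5p, called miR-22-3p and miR-22-5p in the following. Both were taken by name from the deposited table of small RNA counts, so that the members are 2 of the 1364 miRNAs listed. The levels of miR-22 in the saline and morphine libraries, and the ratio of its arms in each library, were part of how this hairpin was chosen. They are therefore given as a description with no test. The libraries came from the nucleus accumbens (NAc) of adult male C57BL/6N mice aged 7 to 8 weeks that went through conditioned place preference (CPP), in which a drug is paired with one compartment of a chamber. Mice of the morphine group were conditioned with morphine at 10 mg/kg and mice of the saline group with saline for 6 days, the CPP test followed on day 7, and tissue was taken 0.5 h after it. Each group had 3 libraries, and the sources give either 1 mouse per library or 6 mice per group. The labels do not say whether the libraries came from separate cohorts, so the spread between them may be partly technical.

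A miRNA hairpin is cut by Drosha and Dicer to a duplex of the 5p and 3p arms, and usually one arm, the guide, is kept by an Argonaute protein while the other, the passenger, is degraded. The guide recognises messenger RNAs mainly through its seed, the bases from position 2 to 8. miR-22 is found in many tissues, is abundant in heart and skeletal muscle, and is known to repress Hdac4, a histone deacetylase active in striatal neurons and muscle. The arms of a hairpin come from a single precursor molecule. A different level of the precursor by itself leaves the ratio of the arms as it was only where both arms have reached steady levels. Neither the precursor nor the decay of the arms is in the counts used here.

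The mature sequences of RefSeq (GRCm38.p6) are printed 5′ to 3′, with the seed in capitals, since the seed sets which messenger RNAs each arm can recognise and the arms differ in it.
miR-22-3p: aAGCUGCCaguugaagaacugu
miR-22-5p: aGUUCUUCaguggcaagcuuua
No other mature miRNA among the 1679 names of the RefSeq table shares either seed (0 others for each arm), so each arm is the only member of its seed family there. Both arms are 22 bases long and begin with A. The GC content is 45.5% for miR-22-3p and 40.9% for miR-22-5p. Of the 1281 listed miRNAs with a miRBase name, 1089 matched a RefSeq sequence. The reverse complement of the miR-22-5p seed, GAAGAAC, lies in miR-22-3p from its base 13 onward, while that of the miR-22-3p seed, GGCAGCU, does not occur in miR-22-5p.

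The hairpin is shown with both arms in capitals, the 5p arm first, because the comparison of arms below rests on this one precursor.
Mir22 hairpin: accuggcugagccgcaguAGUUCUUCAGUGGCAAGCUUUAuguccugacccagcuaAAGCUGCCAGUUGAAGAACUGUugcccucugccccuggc
The gene Mir22 is 95 bases long and occupies bases 75463716 to 75463810 of chromosome 11 (GRCm38, plus strand). miR-22-5p covers 75463734 to 75463755 and miR-22-3p covers 75463772 to 75463793, with 16 bases between them. In the GENCODE vM21 annotation the whole hairpin is exonic: it lies within exon 2 of both annotated transcripts of Mir22hg, a non-coding host gene on the same strand (75461539 to 75466676). The exon runs from 75463693 to 75463857 in one transcript and to 75464029 in the other. In the structure predicted by RNAfold (minimum free energy -41.9 kcal/mol), 19 of the 22 bases of each arm pair with the other arm.

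The total count per library was between 4183333 and 9842050, so that 3 counts, taken as the detection floor, corresponded to at most 0.549 CPM, the count scaled to 1000000 counts of the library after TMM normalization. Every count of either miR-22 arm was at least 520, far above that floor. The counting error of reads was small beside the spread between libraries. Saline replicate 2 stood apart from the other saline libraries. Over the 899 miRNAs whose counts sum to 10 or more, its Spearman correlation was 0.869 and 0.874 with the other saline libraries and 0.907 to 0.926 with the morphine libraries, while saline replicates 1 and 3 correlated at 0.952. Where leaving out saline replicate 2 changes an overlap or a call, the value without it is given, an alternative chosen for levels and marker lists after the data were seen.

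miR-22-3p was much lower in every morphine library than in any saline library. The counts of mmu-miR-22-3p were 8837, 57598 and 23216 in saline replicates 1, 2 and 3. In morphine replicates 1, 2 and 3 they were 2507, 1962 and 2091. The lowest saline and the highest morphine value did not overlap, and saline replicate 2 was far above the other saline libraries. In bulk tissue, fewer cells of a type that holds the miRNA and less of it per cell cannot be told apart.

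On the TMM-scaled level, miR-22-3p was at 1617, 8638 and 2435 CPM in saline replicates 1, 2 and 3. It was at 277, 287 and 328 CPM in morphine replicates 1, 2 and 3. The lowest saline library was 4.93 times the highest morphine library. The saline libraries themselves spread over 5.34-fold, whereas the morphine libraries lay within 1.18-fold of each other. The mean level was 4230.2 ± 3839 CPM (SD, n = 3) with saline and 297.7 ± 27.0 CPM (SD, n = 3) with morphine. The ratio of these means was 14.2, and the fitted log2 fold change was -3.83 (SE 0.54). Both values hold for the deposited counts. In a count table published with the study, which was not used, the groups differ less in counts of miR-22-3p. Without saline replicate 2 the fitted log2 fold change was -2.77 (SE 0.25), with the same direction and a smaller size.

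The standing of miR-22-3p within each library changed in the same way. Ranked by count, miR-22-3p was number 67, 28 and 57 in saline replicates 1, 2 and 3. It was number 151, 140 and 137 in the morphine libraries. It took between 0.211% and 0.691% of all miRNA counts in a saline library and between 0.0255% and 0.0276% in a morphine library. Over all 1364 miRNAs, TMM-scaled levels were lower in the morphine group without overlap for 9.9%. The study's criteria for a differentially expressed miRNA (DEmiRNA) are a limit on the absolute log2 fold change, 0.58 or more, and one on p, 0.05 or less. Applied here to the fold changes and unadjusted p-values of the edgeR fit, they called 19.4% of the 1364, 9.68% lower in the morphine group and 9.68% higher. miR-22-3p is among both sets because the hairpin was chosen on this contrast.

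miR-22-5p differed little between the groups beside its partner, and its levels overlapped in the full set of libraries. Its counts, as listed for mmu-miR-22-5p, were 520, 790 and 911 in saline replicates 1, 2 and 3 and 932, 864 and 1003 in morphine replicates 1, 2 and 3. In TMM-scaled CPM these were 95.2, 118 and 95.5 in the saline group. They were 103, 127 and 158 in the morphine group, and the groups overlapped at saline replicate 2. The group levels were 103 ± 13.3 CPM (SD, n = 3) and 129 ± 27.3 CPM (SD, n = 3), with a fitted log2 fold change of 0.32 (SE 0.47), smaller than its standard error. The overlap rests on saline replicate 2: without it every morphine library was above both other saline libraries, as 47.6% of all miRNAs were then without overlap in either direction, against 22.1% with it. The fitted log2 fold change without that library was 0.44 (SE 0.30), larger than its standard error. Over all 6 libraries miR-22-5p varied 1.65-fold and miR-22-3p varied 31.1-fold. The rank of miR-22-5p by count was between 177 and 212 in the 6 libraries. With scaling by the library total alone, the log2 fold change of miR-22-5p was 0.0019 and that of miR-22-3p was -3.94. This scaling moved the median over all miRNAs from -0.15 to -0.40, so that relative to that median miR-22-5p remained above and miR-22-3p far below.

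**Figure D1:**
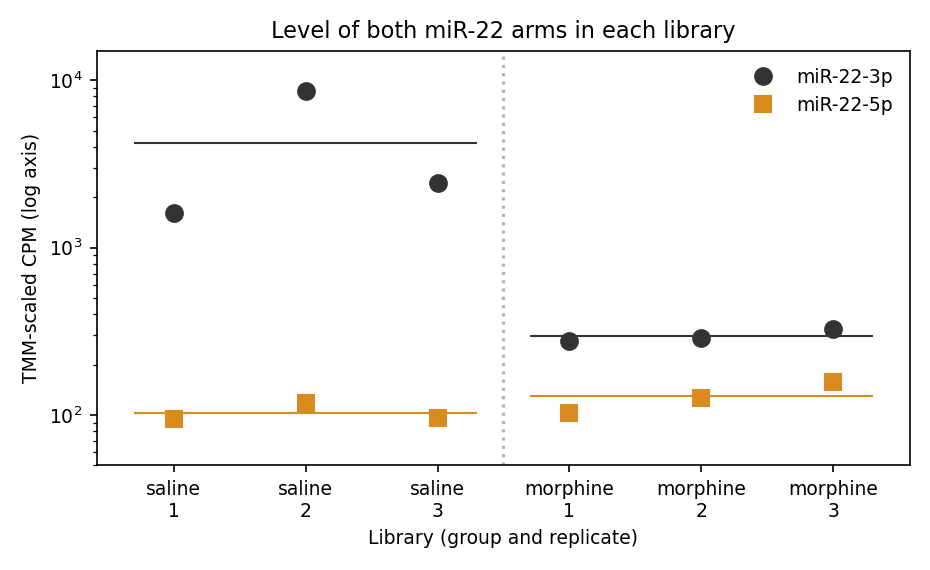
TMM-scaled CPM (log axis) of miR-22-3p (circles) and miR-22-5p (squares) in each of the 6 libraries, with lines at the group means. miR-22-3p lies between 1617 and 8638 CPM in the saline group and between 277 and 328 CPM in the morphine group, while miR-22-5p lies between 95.2 and 158 CPM in all libraries.

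The arm ratio shows the same values free of any scaling between libraries, since both arms are counted in the same library. miR-22-3p outnumbered miR-22-5p in all 6 libraries. There were 17.0, 72.9 and 25.5 counts of miR-22-3p per count of miR-22-5p in saline replicates 1, 2 and 3. In morphine replicates 1, 2 and 3 there were 2.69, 2.27 and 2.08. The morphine ratios were close to each other and lay below all saline ratios, of which saline replicate 2 had the highest.

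Expressed as a share of the counts of both arms, miR-22-5p made up 5.56% in saline replicate 1 (95% exact Clopper-Pearson interval 5.10 to 6.04). The share was 1.35% (1.26 to 1.45) in saline replicate 2 and 3.78% (3.54 to 4.02) in saline replicate 3. In morphine replicates 1, 2 and 3 it was 27.1% (25.6 to 28.6), 30.6% (28.9 to 32.3) and 32.4% (30.8 to 34.1). No interval of a morphine library met that of a saline library, and the intervals of the 3 saline libraries did not meet each other either. The saline libraries thus differed by more than the counting error of reads. The intervals describe that error alone and take every read as a separate molecule. PCR copies could not be told from separate molecules, so the intervals may be too narrow.

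On the log2 scale the ratio of miR-22-3p to miR-22-5p averaged 4.98 ± 1.08 (SD, n = 3) with saline and 1.22 ± 0.19 (SD, n = 3) with morphine. In the deposited counts, which differ for miR-22-3p from those published with the study, the difference, morphine minus saline, was -3.76. This is a 13.5-fold lower ratio. The difference was between -4.21 and -3.16 when each library was left out in turn, the smallest size being that without saline replicate 2. The size of the shift thus came almost wholly from miR-22-3p, with a mean log2 difference in TMM-scaled CPM of -3.45, against 0.31 for miR-22-5p.

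**Figure D2:**
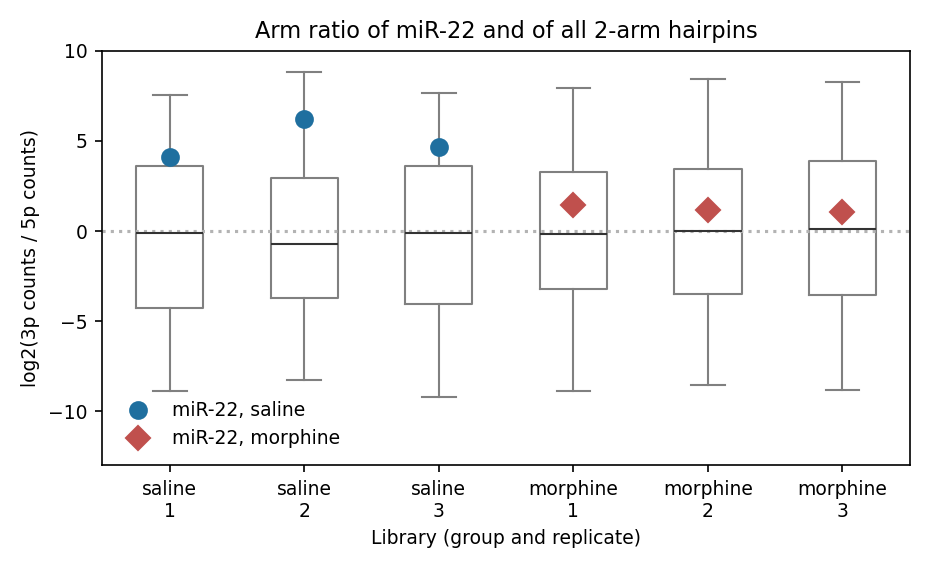
log2 of 3p counts over 5p counts for miR-22 (circles, saline; diamonds, morphine) in each library, over boxes of the same ratio for 216 hairpins with both arms counted (line, median; box, quartiles; whiskers, 5th and 95th percentile). miR-22 lies above the upper quartile in the 3 saline libraries, at 4.09 to 6.19, and inside the box in the 3 morphine libraries, at 1.06 to 1.43.

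A shifted arm ratio was common in these libraries. Of 216 hairpins with at least 20 counts of each arm, 39.4% had ratios that did not overlap between the groups, and 16.7% had ratios that were all lower in the morphine group, miR-22 among them. The median shift was 0.16 on the log2 scale, with quartiles at -0.77 and 1.26. In order of the shift, miR-22 was number 4 from the most lowered, and 9 of the 216 hairpins had a shift at least as large in size in either direction, miR-22 included. Without saline replicate 2, 69.0% of the 216 hairpins had ratios that did not overlap, when only 2 saline libraries were left. The fitted log2 fold changes of the 3p and 5p arms had opposite signs in 102 of the 216 hairpins (47.2%), as they did for miR-22.

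The hairpins on either side of miR-22 in that order showed different patterns of counts. miR-126b, with a shift of -5.80, owed it to its 5p arm, which had 8, 66 and 15 counts with saline and 1734, 924 and 1006 with morphine. It lies opposite the endothelial miR-126a on the same locus, and the counts of its 3p arm repeat those of miR-126a-5p almost exactly (868 and 870 in morphine replicate 1), so its values are uncertain. miR-99a, with a shift of -4.45, had only 55 counts of its 3p arm in all libraries together. miR-136, from the imprinted Dlk1-Dio3 region, had a shift of -3.45, with log2 fold changes of -1.19 for its 3p arm and 2.38 for its 5p arm. miR-330 had a shift of -3.38, with log2 fold changes of -2.59 for its 3p arm and 0.89 for its 5p arm. Of these, miR-22 had the lowest log2 fold change in its 3p arm, -3.83, and the one nearest to 0 in its 5p arm, 0.32. That pattern was not particular to miR-22. Over the 216 hairpins, 7 had a log2 fold change under 0.5 in size for the 5p arm and over 2 for the 3p arm, miR-22 included. Among them were miR-219b (3p -3.74, 5p 0.23) and, in the other direction, miR-148a (3p 4.07, 5p 0.04).

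**Figure D3:**
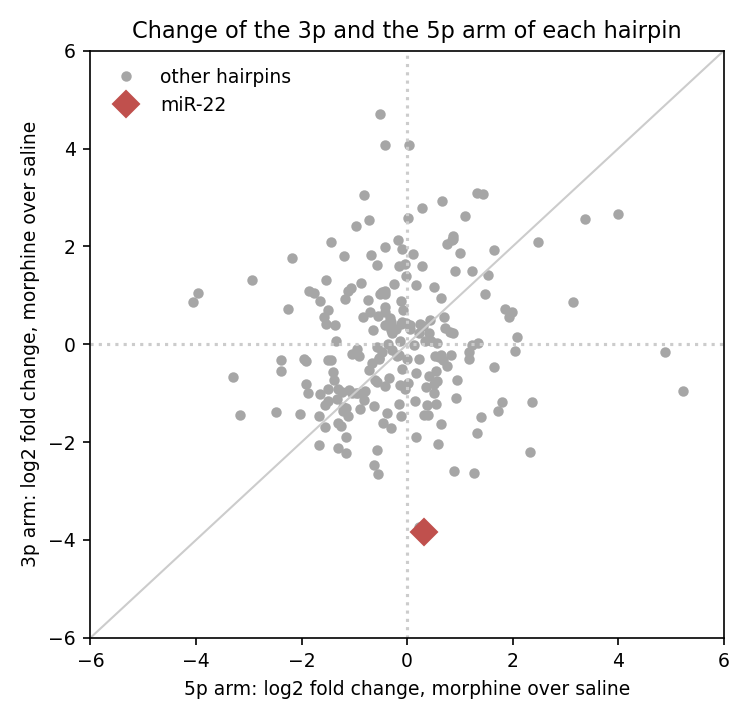
Fitted log2 fold change (morphine over saline) of the 3p arm against that of the 5p arm for 216 hairpins, with miR-22 as a diamond and the diagonal where both arms change alike. miR-22 sits at 0.32 on the 5p axis and at -3.83 on the 3p axis, the lowest point on that axis.

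Mir22 lies in a stretch of chromosome 11 that also holds Mir132 and Mir212, which are transcribed together and are induced by neuronal activity through CREB. Mir132 (75173682 to 75173747) and Mir212 (75173388 to 75173478) are on the same strand as Mir22, 289968 and 290237 bases before it. Within 1000000 bases of Mir22 the RefSeq table also places Mir6926 and Mir3971. Of the 6 mature miRNAs of these hairpins that the table of counts lists, 0 met the study's criteria, against 19.4% of all miRNAs. Neither edgeR nor DESeq2 gave any of the 6 an unadjusted p of 0.05 or less, and 0 had an adjusted p under 0.05, against 5.21% of all miRNAs in the edgeR fit. Both arms of miR-6926 had at most 3 counts in every library. Without saline replicate 2, miR-212-3p alone of the 6 met the criteria, in the direction of higher levels in the morphine group, against 37% of all miRNAs in that fit.

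The arms of these neighbours changed less than miR-22-3p. miR-132-3p was at 3111, 1387 and 3095 CPM in saline replicates 1, 2 and 3. It was at 1795, 2220 and 2534 CPM in morphine replicates 1, 2 and 3. The groups overlapped only through saline replicate 2, the lowest library here and the highest for miR-22-3p, and without it all morphine libraries were lower. With all 6 libraries the edgeR fit gave miR-132-3p a log2 fold change of -0.21 (SE 0.46), with an adjusted p of 0.80. miR-132-5p averaged 4130.5 ± 1416 CPM (SD, n = 3) with saline and 6456 ± 1673 CPM (SD, n = 3) with morphine (log2 fold change 0.64, SE 0.46, adjusted p = 0.492, edgeR).

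miR-212-3p averaged 114 ± 12.6 CPM (SD, n = 3) with saline and 182 ± 46.1 CPM (SD, n = 3) with morphine. Its values did not overlap between the groups, but the difference missed the threshold (log2 fold change 0.67, SE 0.47, adjusted p = 0.478, edgeR). miR-212-5p averaged 710.2 ± 30.8 CPM (SD, n = 3) with saline and 534 ± 25.9 CPM (SD, n = 3) with morphine, again without overlap and short of the threshold (log2 fold change -0.41, SE 0.44, adjusted p = 0.584, edgeR). The arm ratio, 3p over 5p on the log2 scale, differed by -0.80 between the groups for miR-132 and by 1.05 for miR-212. These shifts have opposite signs although both hairpins come from one primary transcript, and each is smaller in size than the -3.76 of miR-22. They are descriptions over 3 libraries per group.

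Other miRNAs known to repress Hdac4 were set beside miR-22-3p. Of 8, all of which were listed, 1 met the study's criteria, against 19.4% of all miRNAs. It was miR-206-3p, a skeletal muscle miRNA, with 391, 108 and 134 counts under saline and 48, 57 and 68 under morphine, without overlap (log2 fold change -2.06, SE 0.63, adjusted p = 0.0567, edgeR). Adjusted over all miRNAs, 0 of the 8 had a p under 0.05 in edgeR and 1, miR-206-3p, in DESeq2. The median log2 fold change of the 8 was -0.57, against -0.15 over all miRNAs. The most abundant of them, miR-29a-3p, a repressor of collagen genes, overlapped between the groups through saline replicate 2 (log2 fold change 0.24, SE 0.49). miR-140-3p had values that were lower in the morphine group without overlap but did not meet the criteria (log2 fold change -0.52, SE 0.44). Without saline replicate 2, 7 of the 8 met the criteria, 5 higher and 2 lower, against 20.9% of all miRNAs higher and 16.1% lower in that fit. The call of miR-206-3p was lost without saline replicate 1, its highest library, where miR-29c-3p was the 1 called in its place, lower. The levels of miR-29c-3p were all higher with morphine once saline replicate 2 was left out, so its direction depended on the library removed. Without saline replicate 3 the number was 2, and without morphine replicate 1 it was 0. Over all miRNAs, 264 of 1364 met the criteria in the full fit. Without saline replicate 1, saline replicate 3 or morphine replicate 1 it was 239, 215 and 176, respectively.

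**Figure D4:**
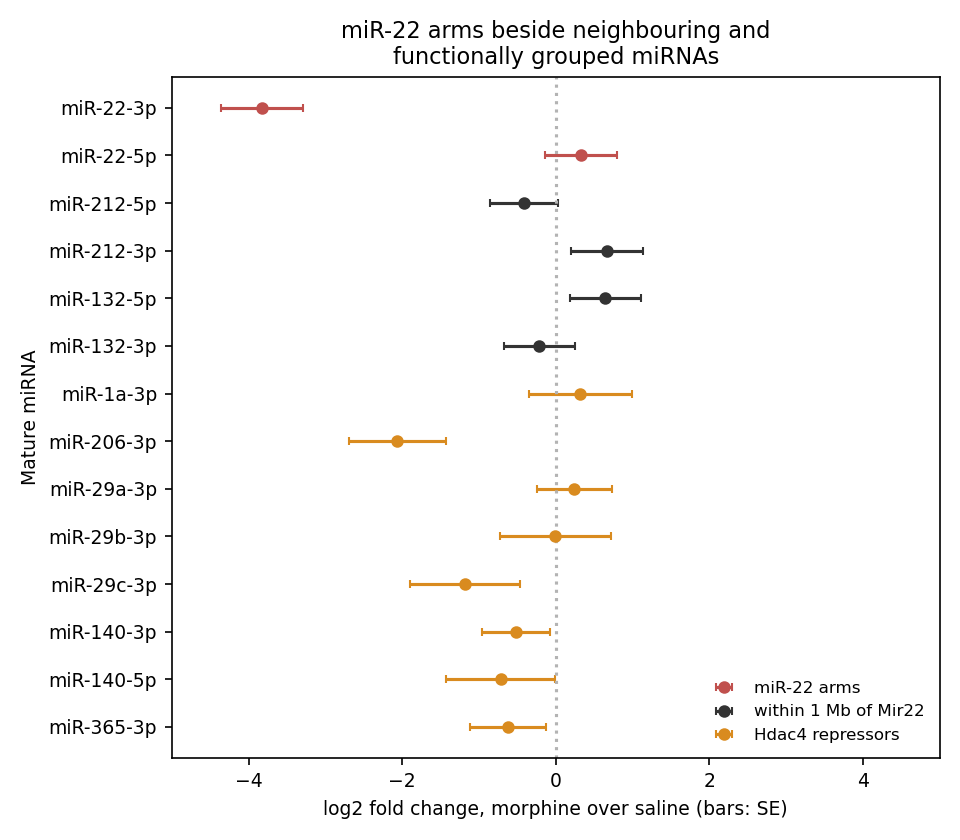
Fitted log2 fold change (morphine over saline, points; bars, SE) of both miR-22 arms and of those miRNAs near Mir22 and among the Hdac4 repressors that had at least 100 counts in total. miR-22-3p lies at -3.83, below all others drawn, and miR-22-5p at 0.32 lies within the range of the neighbouring miR-132 and miR-212 arms, -0.41 to 0.67.

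Over the 6 libraries, the miRNAs whose log2(CPM + 1) followed that of miR-22-3p most closely, among 542 with at least 100 counts in total, were miR-1298-3p, miR-411-5p, miR-874-3p, miR-125b-2-3p and miR-433-5p. Pearson's r was between 0.964 and 0.986, as a description over libraries that share the contrast between groups. All 5 had negative log2 fold changes, from -1.22 for miR-874-3p to -2.48 for miR-433-5p. miR-411-5p, of the imprinted Dlk1-Dio3 region, had 15972, 80700 and 36464 counts in saline replicates 1, 2 and 3 and 12102, 8421 and 6447 in the morphine libraries, the same order within the saline group as miR-22-3p. Without saline replicate 2, 1 of the 5 was still among the 5 most alike, and with scaling by library total it was 3. The choice of names thus rests on that library and in part on the scaling.

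miR-22-5p had no such close companion. The 5 most like it, miR-708-3p, miR-495-3p, miR-331-5p, miR-344f-3p and miR-1839-3p, had r between 0.832 and 0.860, and 0 of them were among the 5 most alike without saline replicate 2 or with scaling by library total. The arms of miR-22 had an r of -0.38 with each other over the 6 libraries.

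Markers of cell types that accumbens tissue can hold were set beside miR-22. Calls in these lists are by the study's criteria, to be read against 9.68% of all miRNAs in each direction, or, without saline replicate 2, against 20.9% higher and 16.1% lower. The neuronal list (miR-124-3p, miR-128-3p, miR-9-5p and miR-137-3p) summed to 142244, 271319 and 127164 CPM in saline replicates 1, 2 and 3 and to between 176797 and 205120 CPM in the morphine libraries. The groups overlapped only through saline replicate 2, where miR-9-5p was at 211199 CPM, and without it all morphine sums were higher. Of the 4 miRNAs, 1 was called, miR-124-3p, lower, and without saline replicate 2 it was 3, 2 higher and 1 lower.

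Summed levels that did not overlap, with or without saline replicate 2, were higher in the morphine group for endothelium (1485 to 5002 against 10984 to 16264 CPM, 1 of 2 called higher), microglia and immune cells (157 to 275 against 858 to 1072 CPM, 1 of 5 called higher) and erythroid cells (208 to 311 against 358 to 571 CPM, 1 of 3 called higher). They were lower for choroid plexus and epithelium (1261 to 2584 against 683 to 866 CPM, 3 of 6 called higher and 1 lower). The members called in the direction of their sum were miR-126a-3p, miR-146a-5p, miR-451a and miR-204-5p. Of these, miR-126a-3p, miR-146a-5p and miR-204-5p each made up most of their sum in every library. In the full fit the other endothelial miRNA, miR-126a-5p, had a log2 fold change of -0.96. The other microglial and immune miRNAs went both ways, from -0.67 to 0.89. The other erythroid miRNAs, miR-144-3p and miR-486a-5p, were at -1.31 and -0.20. In the erythroid list miR-486a-5p was above miR-451a in saline replicates 1 and 3 and was not called. Without saline replicate 2, miR-126a-5p was also called higher and miR-486a-5p lower.

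The striated muscle list, of interest because muscle is rich in miR-22, summed to 276, 997 and 75.5 CPM in saline replicates 1, 2 and 3 and to between 469 and 581 CPM in the morphine libraries. The groups overlapped only through saline replicate 2, where miR-1a-3p was at 940.0 CPM, and without it all morphine sums were higher. In every library miR-1a-3p made up most of the sum. Of its 6 miRNAs, miR-206-3p was called, lower, and without saline replicate 2 miR-1a-3p and miR-499-5p were called higher beside it. Its heart miRNAs miR-208a-3p and miR-208b-3p had at most 1 count in any library.

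The ciliated cell list summed to 58.9, 866 and 190 CPM in saline replicates 1, 2 and 3 and to between 246 and 358 CPM with morphine. It too overlapped only through saline replicate 2, with 0 of 3 miRNAs called in the full fit and 3, all higher, without that library. Sums for oligodendrocytes (1820 to 1903 against 1572 to 1963 CPM) and for mural cells and fibroblasts (7152 to 18957 against 5749 to 13824 CPM) overlapped with and without saline replicate 2. The 1 call among 3 oligodendrocyte miRNAs, miR-219a-5p, lower, rested on saline replicate 2, with 63.9 CPM there and 2.75 and 2.41 CPM in saline replicates 1 and 3, and was lost without it, when miR-338-3p was called higher. Of the 4 miRNAs of mural cells and fibroblasts, 1 was called higher, and without saline replicate 2 it was 2 higher and 1 lower. The part of cell composition in the level of miR-22-3p was not tested.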

How the data were processed

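Small RNA counts from the NAc of 3 saline and 3 morphine libraries were used. The authors discarded reads with adapter, poly-N or low quality and those under 15 or over 35 nt, filtered the rest against ribosomal, transfer and other RNAs and repeats with Bowtie, and compared it with miRBase. They deposited raw read counts per mature miRNA, not pooled, and TPM values, which were checked to equal counts per 1000000 counts of each library and were not tested. A count table published with the study lists higher counts for miR-22-3p in every library, by a larger share in the morphine libraries. The groups thus differ less in its counts of miR-22-3p than in those used here. It was not used here, and the cause of the difference is not known. The genome build, the miRBase release and any use of strand in counting are not given in the sources used here. No column was left unused (0).

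Counts of all 1364 miRNAs, 1281 with a miRBase name, were scaled by TMM and fitted in edgeR 4.0.16 under R 4.3.3 with its quasi-likelihood model. All 6 libraries entered the fit, without covariates. Standard errors came from the fit. Adjusted p-values are Benjamini-Hochberg values over all miRNAs. Arm ratios of other hairpins used a pseudocount of 0.5. Structure was predicted with RNAfold 2.7.2. Total counts of 4183333 to 9842050 per library set the precision. No libraries were copies of each other (smallest chi-square per degree of freedom 91.1). Positions are from RefSeq and GENCODE vM21 on GRCm38, not from the authors' table.

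Members and lists were chosen with earlier results of these data known. The miRNAs named were both arms, those sharing a seed or lying within 1000000 bases, fixed lists of Hdac4 repressors and cell type markers, the 5 most alike to each arm, and the 2 hairpins on either side in the order of arm ratio shifts. Which list members are given with counts, and the count of miR-411-5p, were decided after values were seen. One further list is not reported here. The fit was tested on simulated data. Alternatives were RLE, library total and upper quartile scaling, scaling without the 10 most abundant miRNAs and the members, DESeq2 1.42.0, 2 filters, a replicate block and leaving out each library.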

Additional observations from a re-analysis of the deposited data

How the results depend on the processing

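The log2 fold change of miR-22-3p was negative in all 14 alternative settings, between -4.11 and -2.77 when each library was left out, and only leaving out saline replicate 2 (-2.77) moved it by more than the spread between replicates. That of miR-22-5p was positive in all 14, between 0.16 and 0.56 when each library was left out, and scaling by library total brought it to 0.0019. The difference in the arm ratio was between -4.21 and -3.16 when each library was left out. With the replicate block it stayed at -3.76 by arithmetic, because the mean difference of complete pairs equals the difference of group means. The block is therefore no check of that value. Whether the replicate numbers pair the libraries could not be decided. Same-numbered libraries deviated from their group means with correlations of -0.23, -0.28 and 0.14 over 899 miRNAs, and not every library correlated best with its own number. Deviations from a mean of 3 libraries depend on each other, and saline replicate 2 stood apart, so these correlations cannot exclude pairing. With the replicate block the log2 fold changes were -3.42 for miR-22-3p and 0.31 for miR-22-5p, 179 in place of 264 miRNAs met the study's criteria, and 32 in place of 71 had an adjusted p under 0.05.

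Over all miRNAs, leaving out each library gave 176 to 492 by the study's criteria, the most without saline replicate 2. It gave 0 to 386 at an adjusted p under 0.05 in edgeR, the lowest without morphine replicate 1, where 176 still met the criteria at an unadjusted p, and 37 without morphine replicate 2. That number was 160 with library total scaling, 153 with upper quartile scaling, 156 with DESeq2 and 28 with a minimum of 10 counts in total. Leaving out each library gave 0 to 1 called of 6 miRNAs near Mir22 and 0 to 7 of 8 Hdac4 repressors. The most in both lists was without saline replicate 2, where 37% of all miRNAs were called. The share of hairpins whose arm ratios did not overlap was 69.0% without saline replicate 2, an alternative chosen after seeing the data, and 45.8% and 47.9% with higher count minimums. The causes of these changes were not tested, except that leaving out a library leaves fewer values to overlap. Depth did not limit the arms of miR-22, but with 3 libraries per group and a saline group led by 1 library the size of the difference in miR-22-3p is known only roughly. The count table published with the study, in which the groups differ less in counts of miR-22-3p, was not used.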
